A study of Mus musculus with 12 samples.

Results

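In 1 of the 3 control clones of this series, a long stretch of mouse chromosome 14 carried about 0.5 times the RNA of the other control clones, in both culture states. The stretch was read here through 174 genes. They are all genes on chromosome 14 whose first listed exon starts between 50000001 and 90000000 (GRCm38), with a mean of at least 5 CPM (read counts scaled to a common library size) over the 12 libraries. The rule left out 4 named genes, of which 3 reached that level. The interval held 1066 annotated genes at any level, and 177 reached 5 CPM. The whole table had 55487 genes, of which 10580 reached 5 CPM. The interval was chosen by the counts of control clone 2 against control clones 1 and 3, which were low there, so the ratio of clone 2 to the other control clones is given throughout as a description, with no test. Of the members, 171 are protein coding.

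The series compared Pcbp1 knockout (KO) clones with control clones of the mouse embryonic stem cell line E14 Tg2a. PCBP1 is an RNA-binding protein of the poly(C)-binding family, and the series asks how its loss acts on the passage from naive to primed pluripotency. The controls are 3 independent clones named Scr in the series text and wild type (WT) in the sample labels, and the knockouts are 3 independent clones. Polyadenylated RNA was read in a pair of states, which made 4 groups of 3 libraries. These were control and knockout clones in naive culture, and control and knockout clones as EpiLCs. The labels do not say which naive and EpiLC libraries share a clone, and the replicate number was taken as the clone. Naive cultures grew without serum in N2B27 with LIF, 1 µM of the MEK inhibitor PD0325901 and 3 µM of the GSK3β inhibitor CHIR99021. Epiblast-like cells (EpiLCs), a culture model of the early postimplantation epiblast, were made from them in 48 h on fibronectin with 12 ng/ml bFGF, 20 ng/ml activin A and 1% KOSR. A clone descends from a single picked cell or colony, so a difference carried by 1 clone is present in every library of that clone.

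A cell that has lost or gained part of a chromosome usually makes RNA from that part in proportion to the number of copies, gene by gene. Some genes depart from proportion because their own product, or a pathway that reads it, feeds back on their transcription or on the stability of their RNA. For subunits of complexes the excess or shortfall is more often levelled at the protein, which RNA sequencing does not see. Long-term cultures of mouse embryonic stem cells are known to acquire gains and losses of chromosomes. RNA levels alone give no copy number, and a clone with 1 copy where others have 2 (ratio 0.5) was set beside the other simple case of 2 against 3 copies (ratio 0.667) only as marks on the scale.

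Promoters of members with different behaviour are shown to put letters to the groups described below. Each is the run of 250 bases before the RefSeq start site in GRCm38.p6, read 5′ to 3′ on the strand of the gene, with every CG in capitals. Chd8 stands for the members near 0.5 in both states, Hnrnpc for the abundant members that lay above it, Psme2 for those that lay below it and Pck2 for those that differed between states.
Chd8, minus strand, chr14:52257761-52258010: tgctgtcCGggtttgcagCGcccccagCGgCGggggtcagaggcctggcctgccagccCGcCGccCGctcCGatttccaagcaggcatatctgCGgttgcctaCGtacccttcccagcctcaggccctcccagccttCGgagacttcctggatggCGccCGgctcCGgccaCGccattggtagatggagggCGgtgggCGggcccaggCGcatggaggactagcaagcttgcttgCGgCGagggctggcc
Hnrnpc, minus strand, chr14:52104022-52104271: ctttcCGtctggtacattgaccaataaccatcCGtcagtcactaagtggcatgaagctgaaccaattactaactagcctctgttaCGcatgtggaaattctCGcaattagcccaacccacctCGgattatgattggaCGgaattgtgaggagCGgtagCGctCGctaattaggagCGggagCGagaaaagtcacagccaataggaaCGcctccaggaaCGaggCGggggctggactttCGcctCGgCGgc
Psme2, minus strand, chr14:55591102-55591351: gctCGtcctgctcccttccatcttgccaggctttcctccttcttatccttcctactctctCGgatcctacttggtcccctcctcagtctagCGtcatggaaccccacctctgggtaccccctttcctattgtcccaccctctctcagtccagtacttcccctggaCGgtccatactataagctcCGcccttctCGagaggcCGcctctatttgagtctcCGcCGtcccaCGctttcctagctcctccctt
Pck2, plus strand, chr14:55540016-55540265: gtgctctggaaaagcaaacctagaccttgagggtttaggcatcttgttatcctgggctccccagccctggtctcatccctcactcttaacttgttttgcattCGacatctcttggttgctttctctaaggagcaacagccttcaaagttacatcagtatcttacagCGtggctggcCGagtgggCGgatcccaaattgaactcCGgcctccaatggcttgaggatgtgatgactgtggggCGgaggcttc
The 4 runs hold 20, 17, 10 and 6 CG pairs in that order. These 4 members were picked after their values were seen, and counts varied within each group. Tpt1 and Thtpa, near 0.5 in both states, had 33 and 5 CG pairs, and Elf1 and Acin1, above it in both, 35 and 9. Tdrd3 and Nfatc4, below it in both, had 32 and 8, and Dhrs1, which differed between states, had 38. RefSeq promoters could be matched to 119 members, and all 119 held at least 1 CG (searched as CG, which reads the same on both strands), against 91.7% of 27025 promoters of the same length. The median was 15 CG pairs for these members, 15 for the 51 of them near 0.5 in both states, 12 for the 12 that reached 0.8 in either state and 6 for all promoters. CG-rich promoters are typical of broadly expressed genes, and members had to reach 5 CPM, a condition not placed on all promoters. None of the members from Ctsb to Fndc3a in gene order had a matched promoter, so the CG medians do not cover that stretch.

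Total counts ran from 27146744 to 42204511 per library. The targeted gene Pcbp1 was measured at 418 to 475 CPM in naive WT and 295 to 303 CPM in naive KO, and at 512 to 692 CPM in EpiLC WT and 250.3 to 302 CPM in EpiLC KO, with no overlap between genotypes in either state. The EpiLC library of control clone 2 stood apart in its state markers: across the 6 pluripotency markers (Pou5f1, Sox2, Nanog, Zfp42, Esrrb, Klf4) the median ratio of clone 2 to clones 1 and 3 was 2.81 in EpiLCs and 0.987 in naive cells, and 5 of the 6 reached 1/0.8 in EpiLCs. Its 4 epiblast-like markers (Fgf5, Dnmt3b, Otx2, Pou3f1) summed to 2012 CPM, against 3574 and 3186 CPM in clones 1 and 3. The EpiLC KO libraries summed to 2401 to 2473 CPM. Dnmt3b made up most of these sums (1536 CPM in clone 2, 2911 and 2604 CPM in clones 1 and 3). Dnmt3b, Pou3f1 and Fgf5 had EpiLC ratios of 0.557, 0.550 and 0.676, whereas Otx2 was at 1.09. In naive cells the sum was 136 CPM in clone 2, against 81.6 and 84.7 CPM in clones 1 and 3. The naive ratio of Otx2 was 2.997. Summed levels of 4 endoderm markers were 0.673 to 14.8 CPM over all libraries, of 3 trophoblast markers 0 to 5.68 CPM and of 4 fibroblast or feeder markers 2.89 to 18.9 CPM. In the EpiLC library of clone 2 the endoderm sum was 5.19 CPM, against 1.02 and 0.898 CPM in clones 1 and 3. The trophoblast sum was 2.91 CPM, against 0.134 and 0 CPM. Most of these clone 2 sums came from Gata6 (4.71 CPM) and Gata3 (2.80 CPM). The EpiLC ratios of Sox17, Foxa2 and Afp were 2.19, 0.573 and 0.559. Clone 2 had 0.112 CPM of Elf5 and 0 CPM of Cdx2. These values belong beside every EpiLC ratio below, their part in those ratios was not tested, and in bulk RNA fewer cells of a kind and less RNA per cell cannot be told apart.

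The members as a group were low in control clone 2 and level in the other 5 clones. CPM here is scaled by TMM (trimmed mean of M values, which equalises libraries on the bulk of genes), and where 3 values are given they are clones 1, 2 and 3 in that order. The summed level of the 174 members was 12440.0, 6420.0 and 12150.0 CPM in naive WT and 12780.0, 6572 and 12480.0 CPM in EpiLC WT. In the KO libraries the sum stayed between 11810.0 and 12300.0 CPM. Clone 2 thus held the lowest sum of the 6 libraries in each state, with the nearest other library far above it. The median member lay 0.93 below the median of its state on the log2 scale in naive clone 2 and 0.89 below in EpiLC clone 2, while the other 10 libraries lay between 0.00 and 0.07. Other chromosomes lay between -0.02 and 0.03.

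**Figure D1:**
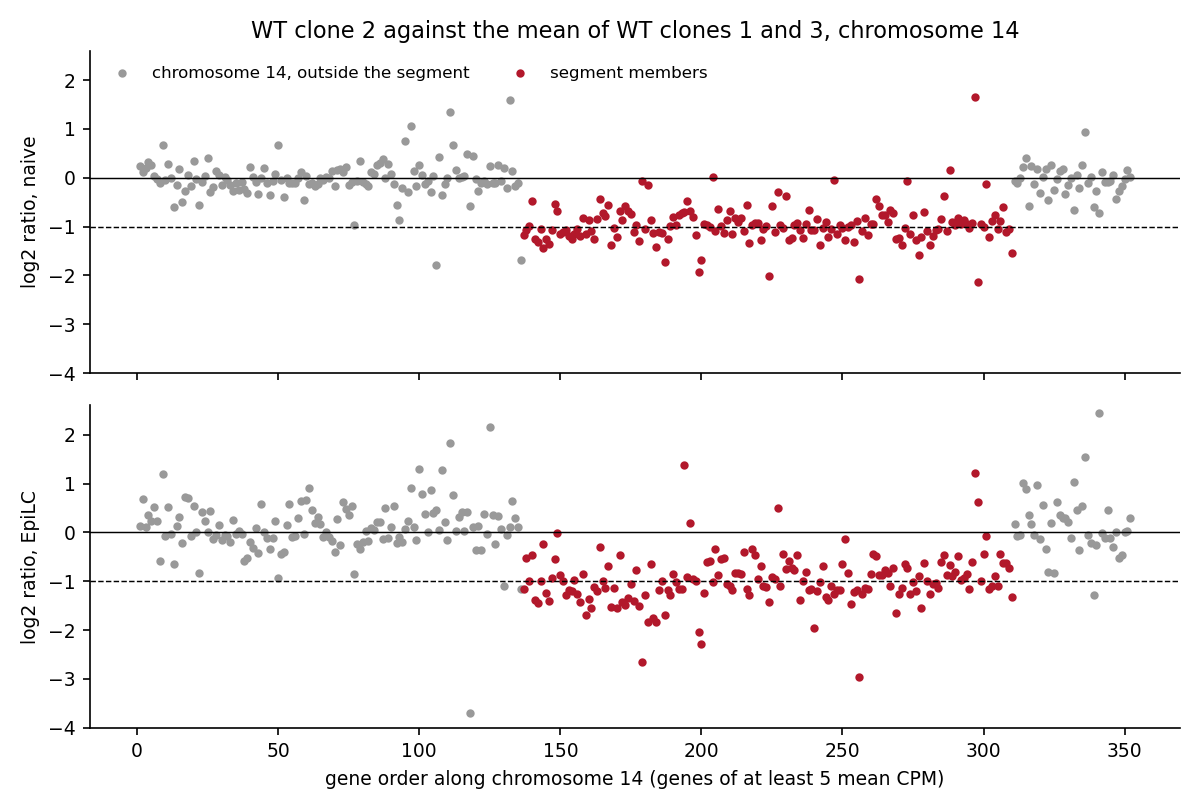
Log2 ratio of WT clone 2 to the mean of WT clones 1 and 3 for each chromosome 14 gene of at least 5 mean CPM, in gene order, naive above and EpiLC below. The solid line is equal level and the dashed line a ratio of 0.5; the 174 red segment members centre on the dashed line (medians 0.504 and 0.5002) and the grey genes before and after on the solid line.

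Member by member, the median ratio of clone 2 to the mean of clones 1 and 3 was 0.504 in naive cells (middle 50% of members 0.451 to 0.569) and 0.5002 in EpiLCs (0.430 to 0.605). The 136 chromosome 14 genes before the segment had medians of 0.976 and 1.06, the 42 after it 0.967 and 1.02, and 10225 genes on other chromosomes 0.992 and 0.988. Clone 2 lay below both other WT clones for 166 members in naive cells and 165 in EpiLCs, where 38.6% and 40.2% of genes on other chromosomes did so, and for 159 members in both states (19.7% of other genes). It was the lowest of all 6 libraries, KO included, for 159 members in naive cells, 157 in EpiLCs and 148 in both, against 18.9%, 20.1% and 6.65% of other genes. These counts follow from how the segment was found, and nothing is read from them against the background.

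The genes next to the limits of the selection were read for where the low ratios begin and end. Ap5m1 and Naa30, which lie before it, had naive and EpiLC ratios of 0.887 and 1.23 and of 0.935 and 1.07. The next gene of at least 5 CPM, Armh4 (chr14:49675952-49783383), was at 0.312 and 0.450, before the lower limit of the selection; at a mean of 8.79 CPM, this 1 gene does not place the edge. Ttc5, Ccnb1ip1 and Parp2, the first members, were at 0.446, 0.477 and 0.507 in naive cells. At the far end Sugt1, Diaph3 and Tdrd3 were at 0.466, 0.483 and 0.344, and Mzt1, Bora and Dis3, the next genes of at least 5 CPM, were back at 0.956, 0.924 and 1.00. In steps of 5 Mb the naive median of the members ran from 0.470 to 0.523 and the EpiLC median from 0.450 to 0.571, leaving out the last step with 2 members. No step that held members stood at the level of the flanks, and the step from 80 to 85 Mb held none. No gene between Tdrd3 (ending at 87545504) and Mzt1 (starting at 99034544) reached 5 CPM, so the far edge is not placed within that gap. At the level limit, the members just inside were Gmpr2 (mean 5.09 CPM, naive ratio 0.586) and Fzd3 (5.46 CPM, 0.972), and the genes just outside were Myh6 (4.99 CPM, 0.454) and Gm16973 (4.58 CPM, 0.347).

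The far end of chromosome 14 differed between KO clones as well. Genes after the segment lay 0.52 above the state median on the log2 scale in naive KO clones 1 and 2 and 0.57 and 0.49 above in EpiLC KO clones 1 and 2, whereas KO clone 3 lay at -0.10 and -0.04. The last 2 members shared this. Diaph3, a formin that nucleates actin filaments, had 115, 114 and 85.8 CPM in naive KO clones 1, 2 and 3 and 63.9, 31.7 and 67.4 CPM in naive WT. Tdrd3, a reader of methylated arginine, had 38.4, 36.97 and 21.7 CPM in naive KO and 17.6, 5.74 and 15.8 CPM in naive WT. For both genes clone 2 was lowest and KO clones 1 and 2 highest, so their KO and WT groups differ at both ends; clone and genotype cannot be told apart for them.

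**Figure D2:**
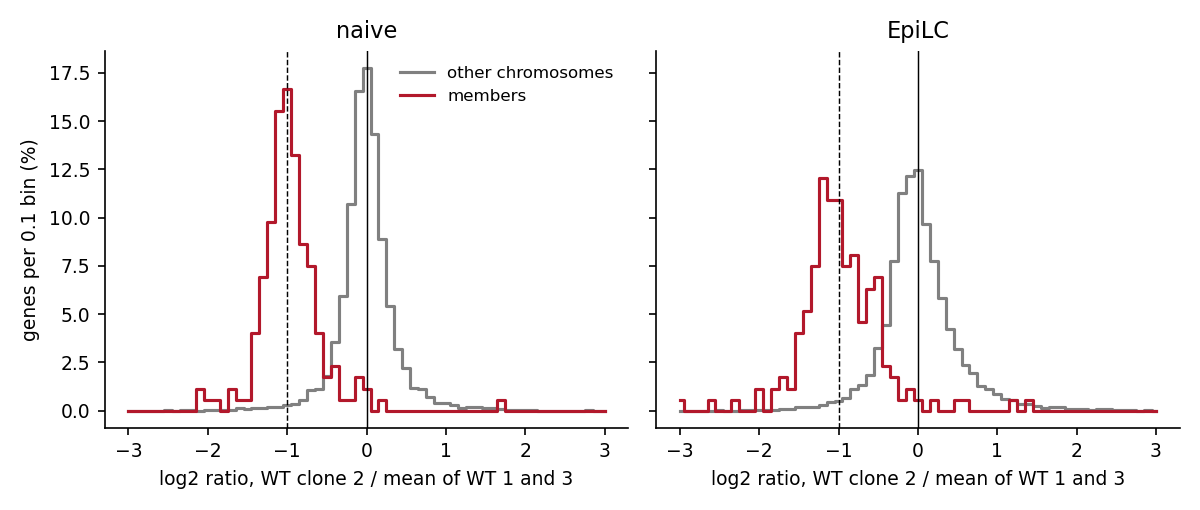
Distribution of the log2 ratio of WT clone 2 to the mean of WT clones 1 and 3 in bins of 0.1, as percent of genes, for the 174 members (red) and 10225 genes on other chromosomes (grey), naive left and EpiLC right. The solid vertical line is equal level and the dashed line a ratio of 0.5; the red curve has about the width of the grey one and sits 1 log2 unit lower.

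The spread among members was close to the spread of genes elsewhere. The SD of the log2 ratio was 0.40 for members and 0.38 for other chromosomes in naive cells, and 0.53 and 0.50 in EpiLCs. Between WT clones 1 and 3 it was 0.34 and 0.33 for the members. The spread shrank with level: in naive cells it was 0.60 for the 41 members of 5 to under 20 CPM, 0.34 for the 106 of 20 to under 100 CPM and 0.19 for the 27 of at least 100 CPM. Other genes of those levels had SDs of 0.53, 0.32 and 0.23. In EpiLCs the members' SDs were 0.77, 0.44 and 0.35. The scatter of single ratios was thus of the size found for genes that share no segment.

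Ratios were sorted into 5 classes: under 0.4 (below 0.5 dose), 0.4 to under 0.6 (near 0.5 dose), 0.6 to under 0.8 (between), 0.8 to under 1/0.8 (near full dose) and 1/0.8 or more (above full dose). In naive cells 123 of 174 members (70.7%) were near 0.5 dose, 16 below, 26 between, 8 near full dose and 1 above. Of genes on other chromosomes 1.8% were near 0.5 dose, 0.636% below, 8.73% between, 76.9% near full dose and 11.9% above. In EpiLCs 97 members (55.7%) were near 0.5 dose, 30 below, 37 between, 6 near full dose and 4 above, and the shares of other genes were 3.29%, 0.91%, 12.7%, 63.4% and 19.7% in that order. A both-state reading was limited to the 153 members whose WT clones 1 and 3 lay within 1.5-fold in each state. Of these 75 (49.0%) were near 0.5 dose in both states, 8 between in both, 6 below in both, 0 near full dose in both and 0 above in both. Among 9269 other genes held to the same limit the shares were 0.281%, 2.37%, 0.0324%, 57.5% and 3.67%. The ratios chose the interval, so nothing is read from these shares. Of the abundant members, 24 of 27 (88.9%) were near 0.5 dose in naive cells and 14 of 27 (51.9%) in EpiLCs.

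Chromatin and transcription was the role list with the most members, 27. Their median ratio was 0.473 in naive cells and 0.502 in EpiLCs, 13 were near 0.5 dose in both states, and clone 2 was the lowest WT clone in both states for all 27. Supt16, the large subunit of the histone chaperone FACT, was measured at 523, 241 and 544 CPM in naive WT and 619.9, 331 and 598 CPM in EpiLC WT. Clone 2 was lowest in each state, and the KO libraries (538, 540.3 and 477 CPM in naive KO and 673, 689 and 561 CPM in EpiLC KO) overlapped clones 1 and 3 or lay near them. Chd8, a chromatin remodeller, was at 180.4, 79.2 and 159.5 CPM in naive WT and 266, 129 and 247 CPM in EpiLC WT. Its ratios were 0.466 and 0.502. Elp3, the catalytic subunit of Elongator, had 0.513 and 0.444, and Zfp219, a zinc finger transcription factor, 0.474 and 0.525. The highest EpiLC ratios of this list were 0.795 for Mphosph8 and 0.791 for Phf11d, both named after their values were seen, with naive ratios of 0.473 and 0.514; neither was called for a difference between states.

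Among 21 members for RNA processing and translation the medians were 0.543 and 0.512, with 11 near 0.5 dose in both states. Tpt1, the translationally controlled tumour protein, had 819.7, 406 and 744 CPM in naive WT and 892, 483 and 995 CPM in EpiLC WT. Clone 2 was lowest by a wide margin in both, and the KO libraries ranged from 724 to 824 CPM in naive cells. Zc3h13, part of the complex that directs m6A methylation, had ratios of 0.533 and 0.535, the ribosome biogenesis factor Nop9 0.569 and 0.516, and Nufip1, which helps assemble small nucleolar particles, 0.494 and 0.448. Nop9 shares 29.9% of its exon length with a neighbour, and the header of the count table names no option for reads that fall on both.

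Hnrnpc and Acin1 departed from these. Hnrnpc, which binds uridine tracts in nascent RNA, was measured at 794, 525 and 729.6 CPM in naive WT and 927, 579 and 764 CPM in EpiLC WT, with 775, 735 and 750.1 CPM in naive KO and 847, 770.4 and 816 CPM in EpiLC KO. Clone 2 was still the lowest library in each state, by a smaller step: the ratios were 0.689 and 0.685, the first of them the highest naive ratio among the 27 members of at least 100 CPM. Acin1, a scaffold of the exon junction and apoptosis- and splicing-associated complexes, had 391, 261 and 379 CPM in naive WT and 463, 266 and 387 CPM in EpiLC WT. Its ratios were 0.679 and 0.625, with the KO libraries between 335 to 373 CPM in naive cells. Both lay nearer the 0.667 mark than the 0.5 mark. They were chosen after their values were seen, and copies of Hnrnpc elsewhere in the genome can take or lose reads. The remaining members in the between class in both states were Esd, a formylglutathione hydrolase (0.777 and 0.726), Tep1, a telomerase and vault protein (0.720 and 0.722), Elf1, an ETS factor (0.660 and 0.652), Bcl2l2, an antiapoptotic BCL2 relative (0.623 and 0.722), Dok2 and Rhobtb2, and Nefm outside the limit on clones 1 and 3.

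**Figure D3:**
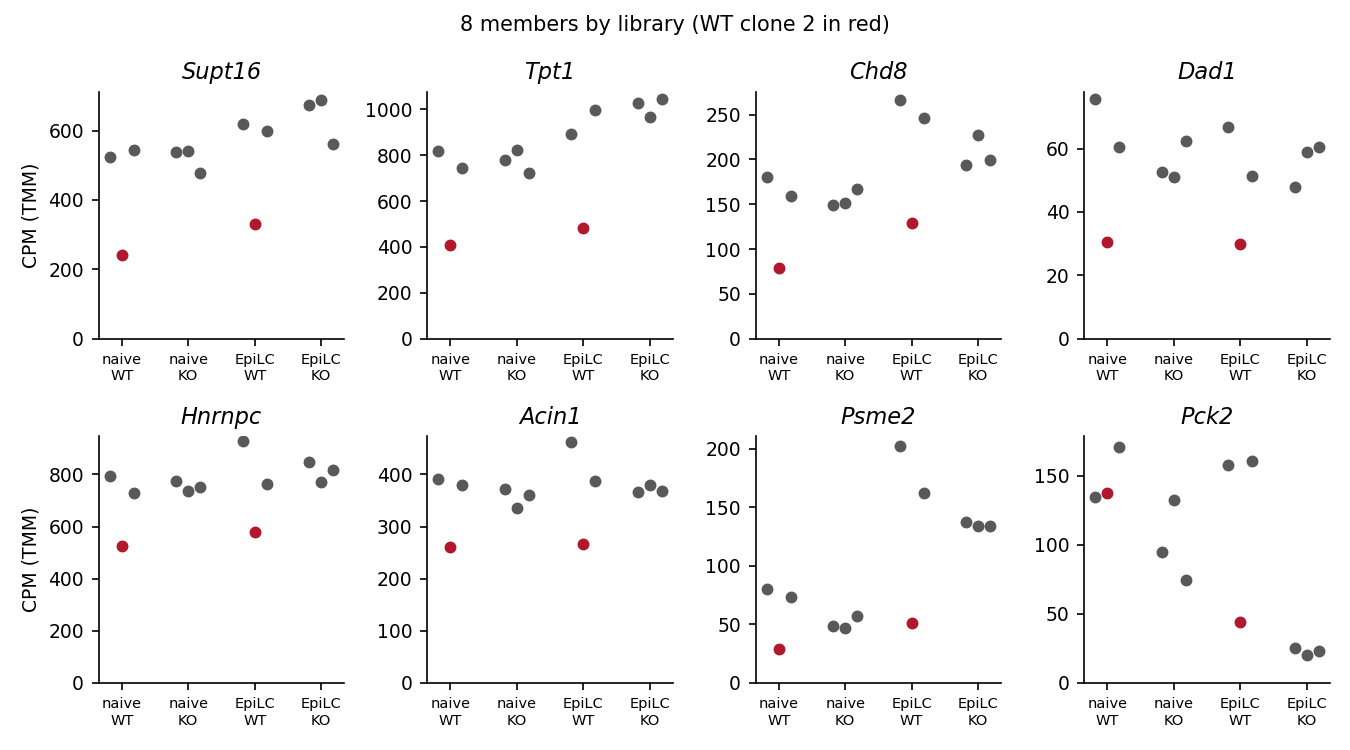
TMM-scaled CPM of 8 members in each of the 12 libraries, with WT clone 2 in red and the other libraries in grey; the vertical axes start at 0. Clone 2 is the lowest library of its state for Supt16, Tpt1, Chd8, Dad1, Hnrnpc, Acin1 and naive and EpiLC Psme2, and for Pck2 it is level with the other WT clones in naive cells and low among WT clones in EpiLCs only.

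In genome maintenance and cell division (23 members, medians 0.507 and 0.478, 11 near 0.5 dose in both states) Ajuba, a LIM protein of Hippo signalling and mitosis, had 124, 70.1 and 126 CPM in naive WT and 315, 136 and 305 CPM in EpiLC WT. Its ratios were 0.560 and 0.439, and clone 2 was lower than clones 1 and 3 at both levels of the gene. Ppp2r2a, a regulatory subunit of protein phosphatase 2A, was at 0.562 and 0.454, and Cdca2, a mitotic regulator of protein phosphatase 1, at 0.446 and 0.446. Rnaseh2b, a subunit of ribonuclease H2, was at 0.514 and 0.588. Rec8, the meiotic cohesin kleisin, lay lower, at 0.302 and 0.311, with 38.5, 12.5 and 44.5 CPM in naive WT and 74.3, 56.6 and 62.3 CPM in naive KO.

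The proteasome and ubiquitin-like list held 13 members with medians of 0.509 and 0.501. Nedd8, the ubiquitin-like modifier of cullins, had 95.7, 46.4 and 86.7 CPM in naive WT and 138, 62.8 and 114 CPM in EpiLC WT, and its ratios were 0.509 and 0.498. The E3 ligase Trim35 and the cullin 3 adaptors Kctd9 and Kbtbd7 were at 0.545, 0.520 and 0.484 in naive cells and at 0.444, 0.556 and 0.470 in EpiLCs. The pair of PA28 genes, whose products cap the 20S proteasome and are induced by interferon, went further down in EpiLCs. Psme2 had 79.9, 28.6 and 73.2 CPM in naive WT and 202, 50.98 and 162 CPM in EpiLC WT, ratios of 0.374 and 0.280, and Psme1 82.8, 37.4 and 79.9 CPM in naive WT and 148, 45.1 and 154 CPM in EpiLC WT, ratios of 0.459 and 0.299. Clone 2 was the lowest of all 6 libraries for both genes in each state. Psme2 has near-identical copies elsewhere in the mouse genome, and its count is uncertain to that extent.

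Membrane traffic and secretion (14 members, medians 0.483 and 0.497) included 7 members near 0.5 dose in both states. Dad1, a subunit of the oligosaccharyltransferase that glycosylates nascent proteins, had 75.6, 30.5 and 60.5 CPM in naive WT and 66.99, 29.96 and 51.2 CPM in EpiLC WT. Clone 2 was the lowest, with the KO libraries at 51.1 to 62.6 CPM in naive cells. Chmp7, an ESCRT-III protein of nuclear envelope sealing, was at 0.535 and 0.564, the integral membrane protein Itm2b at 0.476 and 0.488, and Cog3 of the conserved Golgi complex at 0.515 and 0.571. Of 4 nuclear transport members, the exportin Xpo4 and the importin Ipo4 were near 0.5 dose in both states (0.450 and 0.441, 0.421 and 0.441). Xpo4 fell to that share even as its level rose between states, with 118, 57.5 and 138 CPM in naive WT and 274, 127 and 301 CPM in EpiLC WT. Ipo4 shares 55.3% of its exon length with a neighbour.

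Metabolic enzymes and solute carriers had 14 members with medians of 0.509 and 0.484, and 8 were near 0.5 dose in both states. Fdft1, squalene synthase at the entry to sterol synthesis, had 214, 109 and 209 CPM in naive WT and 272, 148 and 251 CPM in EpiLC WT, ratios of 0.517 and 0.567. Ctsb, a lysosomal protease, was at 0.424 and 0.501, Abhd4, a lipase of N-acyl phospholipids, at 0.486 and 0.416, and Extl3, a heparan sulfate glycosyltransferase, at 0.486 and 0.465. The 11 members listed with mitochondria had medians of 0.560 and 0.496. Bnip3l, a mitophagy receptor, was at 0.469 and 0.416, Vwa8, a mitochondrial ATPase, at 0.431 and 0.451, and Slc25a37, the iron importer mitoferrin 1, at 0.592 and 0.544. Mtmr6, a phosphoinositide phosphatase carried on that list, was at 0.505 and 0.464.

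Signalling, adhesion and developmental regulators were the least uniform. Of 38 listed genes 15 were members, only 8 of them within the limit on clones 1 and 3, and 3 were near 0.5 dose in both states: Fndc3a (0.471 and 0.4998), the cadherin Cdh24 (0.578 and 0.454) and the kinase Ptk2b (0.401 and 0.428). Of the 9 members at 0.8 or more in naive cells, 4 came from this list. Jph4 was among these 4, and its ratio of 0.950 rests on few reads because the gene was nearly silent in naive cells. With so few members nothing is read from the count. Cdh24 had 9.19, 5.06 and 8.31 CPM in naive WT and 22.8, 10.4 and 22.9 CPM in EpiLC WT, with clone 2 the lowest WT clone in each state.

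Genes elsewhere whose products work with a member or are relatives of its product, both called partners here, were not low. For 21 members, 33 such partners of at least 5 CPM had a median ratio of 0.995 in naive cells and 0.923 in EpiLCs, within 0.776 to 1.351 and 0.729 to 1.60, and 0 of 33 were under 0.6. Ssrp1, the other subunit of FACT, was at 0.997 and 0.827 beside 0.452 and 0.544 for Supt16. Mettl14, the partner of the m6A methyltransferase Mettl3, was at 1.08 and 1.02 beside 0.420 and 0.438. Wdr77, which binds the arginine methyltransferase Prmt5, was at 1.03 and 0.984 beside 0.472 and 0.343. Ddost, Rpn1 and Rpn2, which share the oligosaccharyltransferase with Dad1, were at 0.995, 1.09 and 0.951 in naive cells and at 0.908, 0.840 and 0.923 in EpiLCs. The same held for Psme3 (0.994 and 0.967), a relative of Psme1 and Psme2, and for Raly (1.00 and 0.873), a relative of Hnrnpc. The highest naive partner was Rbl1, a pocket protein like the member Rb1, at 1.351 and 1.46 beside 0.437 and 0.478; Rbl2 was at 0.927 and 1.06. Each of the 33 lay above its member, a direction that the choice of members sets.

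Only a small set of members came near or above full dose, and mostly in 1 state. A ratio of at least 0.8 was reached by 16 members in either state, 10 of them within the limit on clones 1 and 3, and by 3 in both, among them Dgkh and the noncoding 1700108F19Rik. A member at 0.8 lies 1.59-fold above the naive median and 1.60-fold above the EpiLC median of the members; 5.17% of members lay at least that far above in naive cells, 5.75% in EpiLCs and 1.72% in both, and on other chromosomes 3.91%, 8.20% and 1.20% of genes lay as far above their own median. The members' shares were of the size found elsewhere in the genome.

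Dgkh, a diacylglycerol kinase, had 18.97, 22.7 and 31.02 CPM in naive WT and 18.8, 20.6 and 24.5 CPM in EpiLC WT, ratios of 0.909 and 0.951. Its naive clones 1 and 3 differed 1.64-fold and its naive KO libraries ran from 11.8 to 54.8 CPM, so clone 2 cannot be placed against a stable reference. For 1700108F19Rik the WT values were 6.91, 31.6 and 20.3 CPM in EpiLCs, and clones 1 and 3 differed by more than the limit.

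Other members were near or above full dose in a single state. Tgm1, a transglutaminase, had 58.8, 35.6 and 56.7 CPM in naive WT and 2.34, 6.87 and 2.93 CPM in EpiLC WT: the naive ratio was 0.617, and in EpiLCs, where the gene was almost off, clone 2 was the highest library with a ratio of 2.61. Dhrs1, a short-chain dehydrogenase, went from 0.620 to 1.14 with 26.7, 16.2 and 25.8 CPM in naive WT and 11.3, 12.4 and 10.3 CPM in EpiLC WT. Rpgrip1, a protein of the photoreceptor cilium, went from 0.627 to 0.996, also with low EpiLC levels of 1.64 to 1.96 CPM. These 3 had fallen on the way to EpiLCs. Enox1 and Pnp also reached 0.8 in EpiLCs and not in naive cells, and both had risen. Enox1 had a ratio of 0.229 and then 1.53, with clones 1 and 3 outside the limit. Pnp, a purine nucleoside phosphorylase, was at 0.371 and then 0.851, and changed between states by a log2 fold change of 2.00 ± 0.32. Esco2, in the band of at least 100 CPM, went from 0.413 to 0.908, with clones 1 and 3 outside the limit. Its log2 change between states in the KO clones was -0.82. The last such member, 4931414P19Rik, went from 0.738 to 0.817, with a log2 change of 0.46 in the KO clones.
The opposite order also occurred. Lcp1, the actin bundler L-plastin, had 37.1, 42.6 and 38.8 CPM in naive WT and 1.83, 1.01 and 1.40 CPM in EpiLC WT, ratios of 1.12 and 0.626, and clone 2 was the highest naive WT library. Parp4, the vault poly(ADP-ribose) polymerase, was at 1.02 and 0.497. Pck2, the mitochondrial phosphoenolpyruvate carboxykinase, had 135, 137 and 171 CPM in naive WT and 158, 44.4 and 161 CPM in EpiLC WT: clone 2 lay between the other naive WT clones and far below both in EpiLCs, ratios 0.898 and 0.279. Jph4, a junctophilin, was nearly silent in naive cells (0.192 to 0.212 CPM) and had 80.3, 12.1 and 71.4 CPM in EpiLC WT, a ratio of 0.160.
Pck2 is a known target of the amino acid stress factor ATF4. Across the 24 of 26 listed ATF4 targets with a mean of at least 5 CPM, none of them a member, the ratio of clone 2 had a median of 1.80 in naive cells and 0.727 in EpiLCs. The summed level of all 26 was 3875, 6248 and 4545 CPM in naive WT and 6219, 4533 and 6040.0 CPM in EpiLC WT. By this sum clone 2 was the highest WT clone in naive cells and the lowest in EpiLCs. Single targets varied. In naive cells 21 of the 24 had a ratio of 1/0.8 or more. In EpiLCs 9 of the 24 were under 0.6, while Cth, Atf5 and Slc7a3 were highest in clone 2 (ratios 1.93, 1.27 and 1.11). The part of these levels in the Pck2 ratios was not tested.

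At the other end, 9 members were under 0.4 in both states. The lowest were Pnma2, a paraneoplastic antigen gene (0.238 and 0.129), Nynrin, of retroviral origin (0.313 and 0.204), Nfatc4, a calcineurin-dependent transcription factor (0.262 and 0.244), Spata13 (0.248 and 0.372), Rec8 and Psme2. Nfatc4 had 22.6, 6.28 and 25.3 CPM in naive WT and 24.3, 5.75 and 22.8 CPM in EpiLC WT, with 13.8, 14.3 and 9.01 CPM in naive KO and 18.2, 17.2 and 11.6 CPM in EpiLC KO. Clone 2 lay below every other library, and the KO clones lay between clone 2 and the other WT clones. Spata13 had 17.5, 3.91 and 14.02 CPM in naive WT and 100.2, 33.95 and 82.3 CPM in EpiLC WT, so that the KO libraries (5.15 to 7.46 CPM) reached closer to clone 2 in naive cells than in EpiLCs (69.3 to 87.9 CPM). Nynrin had 97.5, 28.7 and 86.1 CPM in naive WT and 24.99, 4.11 and 15.3 CPM in EpiLC WT, with naive KO at 91.99 to 99.4 CPM. The remaining 3 were Ndrg2, 4930579G18Rik and Tdrd3. For scale, the 5th percentile of the members' ratios was 0.373 in naive cells and 0.311 in EpiLCs, beside medians of 0.504 and 0.5002. On other chromosomes it was 0.697 and 0.627, beside medians of 0.992 and 0.988. The share of genes elsewhere as far below their own median in both states was not counted, so the 9 are not read as a group apart.

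Members kept their place between states only loosely. The log2 ratios of the 174 members in naive cells and EpiLCs correlated at Pearson 0.39 and Spearman 0.39 across genes, against 0.24 and 0.23 for 10225 other genes; the values share clone 2, its reference clones and the depth of each gene, and genes are not independent replicates. Of the members near 0.5 dose in naive cells and within the limit on clones 1 and 3, 75 were near 0.5 dose in EpiLCs, 14 below, 25 between and 0 higher.

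**Figure D4:**
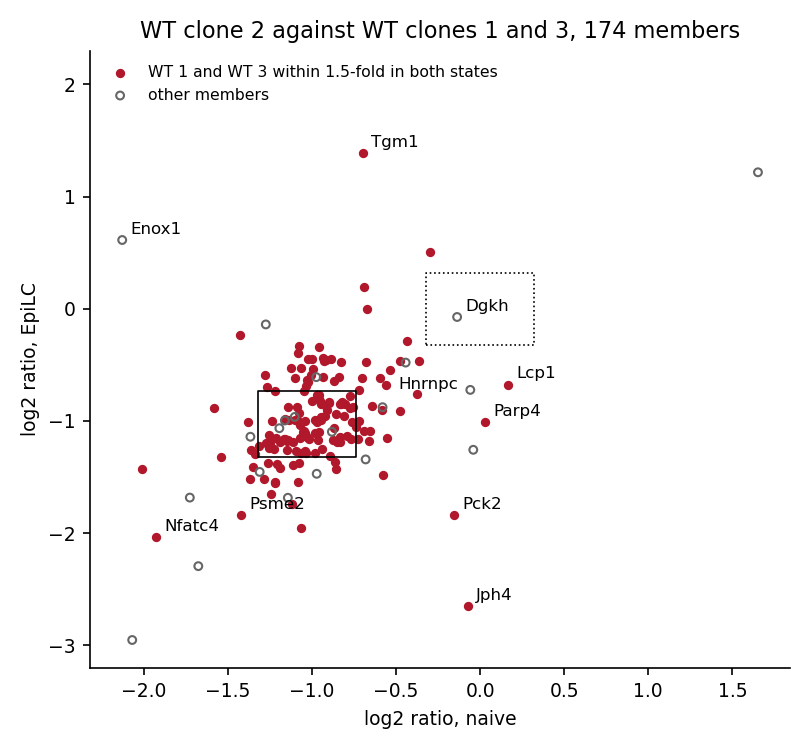
Log2 ratio of WT clone 2 to the mean of WT clones 1 and 3 in naive cells (horizontal) against EpiLCs (vertical) for 174 members; filled points are the 153 whose WT clones 1 and 3 lay within 1.5-fold in both states. The solid square marks ratios of 0.4 to 0.6 in both states and holds 75 filled points, and the dotted square marks 0.8 to 1/0.8 in both and holds no filled point, with Dgkh as an open point inside it.

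How a member changed on the way to EpiLCs went only weakly with its EpiLC ratio. Across the 174 members the log2 change in the KO clones and the log2 EpiLC ratio correlated at Pearson -0.14 and Spearman -0.22. On other chromosomes the same correlations were -0.41 and -0.34. Sorted by the change in the KO clones, which do not enter the ratio, the 22 members that fell at least 2-fold had a median EpiLC ratio of 0.595, the 128 that changed less 0.5002 and the 24 that rose at least 2-fold 0.434. The naive medians were 0.519, 0.501 and 0.465. On other chromosomes the EpiLC medians were 1.22, 0.981 and 0.822 in the same order. The same order inside and outside the segment goes with the state markers given above for the EpiLC library of clone 2, and their part was not tested. This sorting was chosen after the data were seen.

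The change of the clone 2 ratio between states is built from the same ratios that chose the interval, and clone 2 has 1 library per state, so that the spread in its test comes from the other libraries. The counts are given as a description. By edgeR's quasi-likelihood test with Benjamini-Hochberg adjustment over 18134 genes, 0 members were called at an adjusted p under 0.05, where 0.011% of all genes tested were called (0.011% higher, 0% lower). At an unadjusted p under 0.05 there were 17 members (9.77%) and 10.3% of all genes. DESeq2 called 1 member, Pck2, and edgeR without KO clone 3 called Pck2 and Tgm1; nothing is supported with these calls. The test had little reach on simulated counts, where it recovered 0% of genes changed 2-fold and 33% of those changed 4-fold. The changed genes there were drawn from all genes kept by the filter, at any level. Their spread came from the fit of 4 groups, in which clone 2 adds to the spread of the members. The rates are thus not those of the members alone. A miss does not show that a ratio was the same in both states.

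Because clone 2 is 1 of 3 controls, the segment enters every comparison of KO with WT. With all libraries the log2 fold change of KO over WT was positive for 144 of 174 members in naive cells (median 0.24) and 134 in EpiLCs (median 0.21), whereas the medians over other chromosomes were -0.02 and -0.04. Without clone 2 the members' medians were -0.02 and -0.05 and 83 and 77 were positive. By edgeR's quasi-likelihood test 5 members were called in naive cells (3 higher, 2 lower in KO), where 9.23% of all genes tested were called (4.27% higher, 4.95% lower). Without clone 2 there were 15 (4 higher, 11 lower) against 9.37% of all genes (4.54% higher, 4.84% lower), and 4 were shared. In EpiLCs 6 were called (5 higher, 1 lower) against 15.1% of all genes (7.22% higher, 7.86% lower). Without clone 2 there were 33 (14 higher, 19 lower) against 18.2% (9.37% higher, 8.85% lower), and all 6 were shared. The members' shares without clone 2, 8.62% and 19.0%, were near those of all genes. By role, without clone 2 in EpiLCs, 4 of 27 chromatin and transcription members rose and 1 fell. Of 14 membrane traffic members 1 rose and 5 fell, and of 21 RNA processing members 0 rose and 3 fell. Of 13 proteasome and ubiquitin-like members 1 rose and 3 fell. In the same order, genome maintenance had 2 and 2 of 23, signalling 3 and 2 of 15, and members in no list 3 and 1 of 32. Metabolic enzymes had 0 and 0 of 14, mitochondria 0 and 1 of 11, and nuclear transport 0 and 1 of 4. Counts this small are given as a description.

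**Figure D5:**
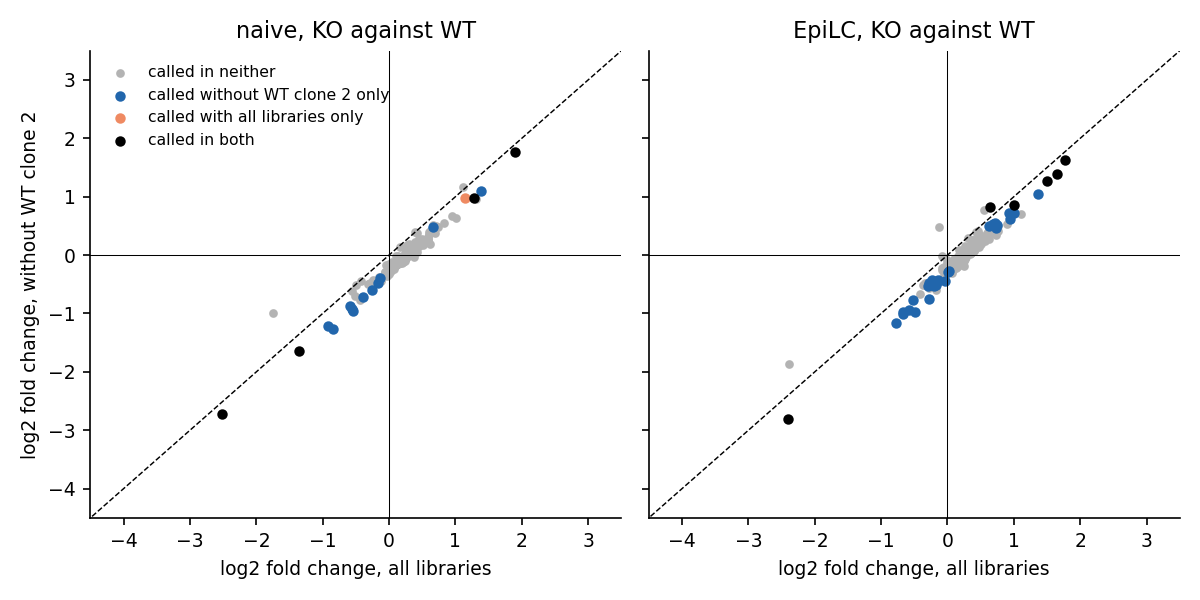
Log2 fold change of KO over WT for the 174 members with all libraries (horizontal) and without WT clone 2 (vertical), naive left and EpiLC right; the dashed line is equality and colours give calls at an adjusted p under 0.05. Nearly all points lie below the line, and the median falls from 0.24 to -0.02 in naive cells and from 0.21 to -0.05 in EpiLCs.

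The neurofilament genes rose in KO with and without clone 2. Nefm, the medium neurofilament chain, had 14.8, 8.81 and 9.13 CPM in naive WT and 33.4, 36.4 and 52.8 CPM in naive KO, with no overlap. Its log2 fold change was 1.90 ± 0.26 (SE; edgeR adjusted p = 0.00115) in naive cells and 1.77 ± 0.27 (adjusted p = 0.00163) in EpiLCs, and 1.77 ± 0.28 and 1.63 ± 0.29 without clone 2. Nefl, the light chain, overlaps Nefm on the other strand over 32.8% of its exons, and the header of the count table names no strand option, so the pair is not independent. It had 1.15 ± 0.32 (edgeR adjusted p = 0.0417) in naive cells and 1.51 ± 0.32 (0.00909) in EpiLCs. Its naive call was lost when any 1 of the 6 naive libraries was left out (adjusted p 0.0538 to 0.141) and without clone 2 in both states (0.0688).

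Rb1, the retinoblastoma pocket protein that restrains E2F, was higher in KO. It had 9.26, 5.29 and 14.9 CPM in naive WT and 11.3, 6.91 and 17.6 CPM in EpiLC WT, with 27.8, 22.95 and 21.3 CPM in naive KO and 48.2, 28.8 and 35.9 CPM in EpiLC KO. The KO libraries lay above all WT libraries in both states, and clone 2 was the lowest WT clone. The edgeR log2 fold change was 1.29 ± 0.37 (adjusted p = 0.0465) in naive cells and 1.65 ± 0.37 (adjusted p = 0.0113) in EpiLCs, and 0.98 ± 0.28 (0.0465) and 1.38 ± 0.28 (0.00723) without clone 2. The naive call was lost on leaving out naive KO clone 1, 2 or 3 or WT clone 1 or 2 (adjusted p 0.0652 to 0.167) and the EpiLC call on leaving out KO clone 1 (0.0512). Akap11, an anchor of protein kinase A, rose in EpiLC KO by 1.00 ± 0.25 (edgeR adjusted p = 0.0189; 0.0661 without KO clone 1, 0.0647 without WT clone 1).

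Tgm1 and Pck2 fell furthest in KO. Tgm1 had 58.8, 35.6 and 56.7 CPM in naive WT and 6.00, 6.32 and 14.1 CPM in naive KO, a log2 fold change of -2.51 ± 0.41 (edgeR adjusted p = 0.00284). Even clone 2, at its reduced level, was above every KO library. Pck2 in EpiLC KO was at 25.5, 19.8 and 22.95 CPM, below all EpiLC WT libraries, and changed by -2.41 ± 0.38 (edgeR adjusted p = 0.00189), or -2.81 ± 0.21 without clone 2. The 26 ATF4 targets summed to 2408 to 2566 CPM in EpiLC KO; their part was not tested. Ripk3, a kinase of necroptosis, had 18.3, 7.88 and 17.02 CPM in naive WT and 5.50, 4.15 and 7.26 CPM in naive KO, and clone 2 came close to the KO libraries. Its log2 fold change was -1.35 ± 0.38 (edgeR adjusted p = 0.0446), not called without naive KO clone 1 or 2 or WT clone 1 or 3 (0.128 to 0.140), and -1.65 ± 0.30 (0.00626) without clone 2.

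Several members were not called in KO against WT with all libraries and were called lower with clone 2 left out in both states. Psme1 had 41.1 to 48.2 CPM in naive KO and 59.4 to 72.6 CPM in EpiLC KO: all KO libraries lay below WT clones 1 and 3, while clone 2 (82.8, 37.4 and 79.9 CPM in naive WT) lay below the KO range. Its edgeR log2 fold change was -0.58 ± 0.38 (adjusted p = 0.379) in naive cells and -0.78 ± 0.38 (0.184) in EpiLCs with all libraries. Without clone 2 it was -0.87 ± 0.11 (8.48e-04) and -1.17 ± 0.11 (1.15e-04). Ipo4 had 63.1, 26.8 and 58.5 CPM in EpiLC WT and 29.2, 31.8 and 32.1 CPM in EpiLC KO, and went from -0.67 ± 0.32 (edgeR adjusted p = 0.178) to -0.97 ± 0.11 (2.81e-04). Oxa1l, the insertase of the mitochondrial inner membrane, went in EpiLCs from -0.18 ± 0.34 (edgeR adjusted p = 0.766) to -0.52 ± 0.09 (0.00339). In naive cells Spata13 went from -0.84 ± 0.46 (edgeR adjusted p = 0.296) to -1.26 ± 0.18 (0.00188) and Mmp14, a membrane-bound matrix metalloproteinase, from -0.92 ± 0.41 (0.195) to -1.22 ± 0.22 (0.00684). For all 5 genes the low clone sat with or below the KO clones in the state named. With only the naive library of clone 2 left out, Psme1 (edgeR adjusted p = 0.169) and Mmp14 (0.0870) were not called in naive cells, and with only its EpiLC library left out Oxa1l (0.183) was not called in EpiLCs. With clone 2 kept and no filter on low counts, edgeR called Psme1 (0.00486) and Ipo4 (0.0148) in EpiLCs and Spata13 (0.0224) and Mmp14 (0.0245) in naive cells.

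The transition itself was also read through 3 controls of unequal level. In EpiLC WT against naive WT, edgeR called 58 members (27 higher, 31 lower), 33.3% of them, where 52.7% of all genes tested were called (26.4% higher, 26.3% lower). Without clone 2 the count was 96 (46 higher, 50 lower) against 50% of all genes (24.8% and 25.2%). With the clone as a block, which compares libraries of the same replicate number, it was 107 (53 higher, 54 lower) against 57.8% (28.5% and 29.3%). With the block and without clone 2 it was again 107 (53 higher, 54 lower) against 55.9% (27.5% and 28.4%). All 58 were called in the block fit and in the fit without clone 2. By role, the block fit called 0 of 14 membrane traffic members higher and 8 lower. In the same order it called 10 and 5 of 23 genome maintenance members and 9 and 10 of 27 chromatin and transcription members. RNA processing had 7 and 4 of 21, proteasome and ubiquitin-like 6 and 4 of 13, and signalling 6 and 4 of 15. Metabolic enzymes had 3 and 5 of 14, mitochondria 2 and 2 of 11, nuclear transport 2 and 0 of 4, and members in no list 8 and 12 of 32. Chd8 and Nedd8 were among those gained (log2 fold change 0.63 ± 0.08 and 0.45 ± 0.07 in the block fit, edgeR adjusted p = 2.19e-04 and 6.80e-04, against 0.0837 and 0.166 without the block), and were picked after their values were seen.

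Members that fell most were Lcp1 (log2 fold change -4.78 ± 0.43), Tgm1 (-3.65 ± 0.43), the soluble epoxide hydrolase Ephx2 (-3.57 ± 0.44), the homeobox gene Zfhx2 (-2.82 ± 0.36), Nynrin (-2.25 ± 0.54) and the receptor Tnfrsf19 (-2.08 ± 0.36). Those that rose most were Jph4 (8.07 ± 0.70), Enox1 (5.46 ± 0.57), the zinc and iron importer Slc39a14 (5.08 ± 0.27), the docking protein Dok2 (5.07 ± 0.32), the adaptor Efs (3.35 ± 0.39) and Pnma2 (2.89 ± 0.66). Their edgeR adjusted p-values ran from 2.71e-08 for Slc39a14 to 0.00354 for Nynrin. Slc39a14 had 3.08, 1.346 and 2.42 CPM in naive WT and 82.7, 56.5 and 93.2 CPM in EpiLC WT, and Zfhx2 138, 65.3 and 145 and 22.8, 7.84 and 18.5 CPM. In both genes clone 2 moved in the direction of the other clones from a lower start. Dok2 did the same, from 1.03 to 1.70 CPM to 60.4, 36.2 and 50.8 CPM, and so did Ephx2, from 199, 86.7 and 141 to 19.8, 5.45 and 10.5 CPM.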

How the data were processed

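Polyadenylated RNA of 12 cultures was sequenced. The deposited values are read counts per gene, not normalized, which the authors made with featureCounts 2.0.1 on GENCODE vM25, per the file headers. The submitters' processing notes also name fastp, FastQC, STAR and DESeq2 and the build GRCm38/mm10. The header names no option for strand, overlapping genes or reads with several positions; 8 members share over 25% of their exon length with other genes. Genes without a symbol took at most 0.0312% of the counts of a library.

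Counts were scaled by TMM and fitted in edgeR 4.0.16 (R 4.3.3) by quasi-likelihood over all 12 libraries in 4 groups, on 18134 genes kept by filterByExpr (minimum count 10, minimum total 15). p-values were adjusted by Benjamini-Hochberg over all genes tested, and a gene was called under 0.05; ± is the standard error of a log2 fold change. Tested on simulated data, the fit recovered 40.4% of genes changed 2-fold and 79.8% of those changed 4-fold in naive KO against WT (17628 genes), and 43.9% and 78.6% in EpiLC KO against WT (17617 genes). The changed genes were drawn from all genes kept by the filter, so these rates are not those of the members alone. Alternatives were DESeq2 1.42.0, other scalings, filters, limits and reference clones, a block, and leaving out libraries.

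The series text calls the clones independent. The labels do not state whether a replicate number is the same clone in both states. Deviations from group means on other chromosomes were correlated between libraries. Naive and EpiLC libraries of the same number correlated at 0.206 to 0.222 in WT and 0.150 to 0.263 in KO. Those of different numbers correlated at -0.162 to -0.0348 in WT and -0.249 to 0.0445 in KO. KO and WT libraries of the same number correlated at -0.268 to 0.0042 and were not paired. Some KO and WT libraries of different numbers, which share no clone, reached as much. EpiLC WT 3 and EpiLC KO 1 were at 0.290, and EpiLC WT 2 and EpiLC KO 3 at 0.208. A correlation of this size does not settle the pairing by itself, and using the number as the clone is an assumption.

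Members and gene lists were chosen with earlier results of these data known. Named genes were, for each of 9 role lists, up to 4 members near 0.5 dose and up to 3 near full dose in both states, of highest CPM; the 6 lowest and the 6 highest by mean log2 ratio; up to 6 called members per KO contrast by adjusted p, with and without clone 2; the 6 largest changes each way between states in WT; the genes next to each limit of the selection; and partners elsewhere. Other genes are said to be picked after their values were seen, or illustrate a class. Changes in KO between states used log2(CPM + 0.5). Promoters are from RefSeq (GRCm38.p6). Single-gene results for 1 member are not reported here; it stays in the counts.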

Additional observations from a re-analysis of the deposited data

How the results depend on the processing

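The median ratio of clone 2 lay between 0.5004 and 0.514 in naive cells and between 0.489 and 0.512 in EpiLCs under the scalings, level limits and reference clones tried, and 64 to 101 members were near 0.5 dose in both states (75 as reported). Members near full dose in both states numbered 3 at a mean CPM of at least 1, 1 with clone 1 alone as reference (0 with clone 3 alone) and 1 with no limit on clones 1 and 3. Counts of called members moved more. DESeq2 gave 10 in naive KO against WT, 16 in EpiLC KO against WT and 1 for the state difference, and no filter on low counts gave 21, 27 and 4. Leaving out WT clone 2 in both states gave 15, 33 and, between states in WT, 96. Leaving out 1 library gave 2 to 4 in naive KO against WT (2 without KO clone 1 or WT clone 1, 3 without KO clone 2 or 3 or WT clone 3), 3 to 11 in EpiLC KO against WT (3 without KO clone 1, 11 without WT clone 2) and 47 to 74 between states in WT. Leaving out 1 clone in both states gave 0 to 2 for the state difference (2 without KO clone 3). With the replicate number as a block, naive KO against WT gave 6 and EpiLC KO against WT 12, although that number does not pair KO with WT. The clone as a block gave 107 between states in WT, 107 also without clone 2 (chosen after seeing the data), and 0 for the state difference. Oxa1l in EpiLC KO turned to a log2 fold change of 0.03868 without WT clone 1 and 0.002925 without WT clone 3, and was -0.5177 without WT clone 2; it was not called in any of these. Where fewer libraries or other genes were fitted the alternatives differ by construction. Otherwise the cause was not tested. Shares of all genes called are given above for the fits with all libraries, without clone 2 and, between states in WT, with the clone as a block. For the other settings no share is set beside the count, so a moved count cannot be read as particular to the members.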

Other observations

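Some members start close to another member on the opposite strand. In 12 such pairs the plus-strand gene started up to 1000 bp after the minus-strand gene. Pairs whose starts overlap, such as Rab2b and Tox4, are not among the 12. Naive ratios within the 12 pairs differed by a median of 0.12 on the log2 scale, against 0.27 for 173 neighbours in gene order. In EpiLCs the medians were 0.37 and 0.36. Ska3, of the spindle and kinetochore complex, and Mrpl57, of the mitochondrial ribosome, start 49 bp apart; their naive ratios were 0.536 and 0.564 and their EpiLC ratios 0.559 and 0.556. Setdb2, a histone methyltransferase, and Cab39l, 88 bp apart, were at 0.525 and 0.527 in naive cells but at 0.726 and 0.516 in EpiLCs. Dhrs1 and Nop9 start 3 bp apart and were at 0.62 and 0.569 in naive cells but at 1.14 and 0.516 in EpiLCs. Cenpj, a centriole protein, and Parp4, 194 bp apart, had naive ratios of 0.498 and 1.02 and EpiLC ratios of 0.666 and 0.497. Osgep and Apex1, 75 bp apart, had naive ratios of 0.416 and 0.403, their EpiLC ratios were 0.385 and 0.365, and Apex1 shares 61.7% of its exon length with other genes. The pairs were looked at after the data were seen, and no test was made.

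Across the 174 members, exon length had a Spearman correlation of -0.05 with the naive log2 ratio and 0.12 with the EpiLC log2 ratio. Mean CPM had -0.10 and 0.04. These are across genes of the same libraries, which share clone 2 and its reference clones, and are given as a description.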
